A study of Rattus norvegicus with 6 samples.

Results

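The transcripts described here encode the nuclear subunits of the mitochondrial respiratory chain, complexes I to V, in the rat kidney. A probe set belonged when its single annotated gene symbol began with Ndufa, Ndufb, Ndufc, Ndufs, Ndufv, Sdha to Sdhd, Uqcr, Cox4, Cox5, Cox6, Cox7, Cox8a, Cox8c or Atp5, or was Cyc1 or Cycs. The rule found 101 probe sets of 90 genes among 31042 tested. Of these, 12 probe sets of 10 genes named Ndufaf or Sdhaf encode assembly factors, which are given apart from the subunits, and 1 is a pseudogene, Cox6c-ps1, which is counted with complex IV. No probe set carried Cycs, Cox8c or Cox7a2 as its single symbol.

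Kidney RNA came from 6 male rats, 1 Affymetrix array each. The 3 controls were Dahl salt-sensitive (S) rats, an inbred strain prone to salt-sensitive hypertension and proteinuria. The other 3 were congenic S.LEW(10)x12x2x3x5 rats, which by their name carry a segment of Lewis (LEW) chromosome 10 on the S background, so that both groups share the rest of the S genome. All rats were weaned at 30 days, then ate chow with 0.3% salt and were 53 days old. The congenic line is a single strain, and whole kidney was used, so fewer cells of a type and less RNA per cell cannot be told apart.

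The respiratory chain passes electrons from NADH (complex I) and succinate (complex II) through ubiquinone to complex III, from there by cytochrome c to complex IV, which reduces oxygen. Complexes I, III and IV pump protons across the inner mitochondrial membrane, and complex V, the ATP synthase, uses the gradient to make ATP. Tubules that reabsorb sodium, above all the proximal tubule and the thick ascending limb, depend on this ATP and are rich in mitochondria. Most subunits are encoded in the nucleus and a few in mitochondrial DNA.

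Values are log2 probe set intensities. Lower quartiles of the arrays lay between 5.88 and 5.96. An array has no read depth, so 3 rats per group limit the precision. Markers of the thick ascending limb (Umod at 14.72 in S), the proximal tubule (Miox at 14.53 in S, though other markers of it differed, as given further on) and the collecting duct (Aqp2 at 12.84 in S) were bright, and skeletal muscle markers (Ckm at 5.46 in S) were dim. RNA quality was read from the beta-actin and Gapdh controls, as the log2 signal near the 3′ end minus that near the 5′ end, which is wider in degraded RNA or after incomplete labelling. It averaged 1.79 ± 0.28 for S rats and 1.12 ± 0.13 for congenic rats (SD, n = 3). Its values were 1.56, 2.10 and 1.70 in S rats 1 to 3 and 1.26, 1.01 and 1.08 in congenic rats 1 to 3, so the groups were apart (two-sided exact permutation test, p = 0.1, which is the lowest value 3 against 3 can reach). S rat 2 stood highest. This rat also stood apart in some markers of the distal tubule and the podocyte. Calb1 was 9.38 there and 12.73 to 13.52 in the other rats, and Slc12a3 9.50 against 11.73 to 12.42. Nphs1 was 5.67 there against 6.90 to 8.87, and Wt1 5.05 against 6.89 to 8.10. Pvalb and Podxl, the other measured markers of these lists, did not set it apart. They stood at 5.39 and 10.02 in S rat 2 and at 5.32 and 10.07 in S rat 3.

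Transcripts of the respiratory chain differed little between the strains. Ndufs4, an accessory subunit that completes the NADH-binding arm of complex I, fell to 0.81 times its S level, and it was the only one of 101 probe sets to pass (limma, adjusted p under 0.05), with 0 higher and 1 lower. That is 0.99% of the members, against 6.00% of all probe sets tested, of which 3.47% were higher and 2.53% lower. Without S rat 2, 0 of the members and 968 of all probe sets passed in limma, with 13 members at an unadjusted p under 0.05. The largest difference was that of Uqcrc2, a core protein of complex III, whose dimmer probe set stood 2.40-fold higher in congenic rats with wide scatter among S rats and did not pass. The median log2 change was -0.05 over the members and -0.02 over all probe sets. For 94 of 101 members (93.1%) the 95% interval of the change lay within 0.5 on the log2 scale in either direction, against 85.5% of all probe sets.

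**Figure D1:**
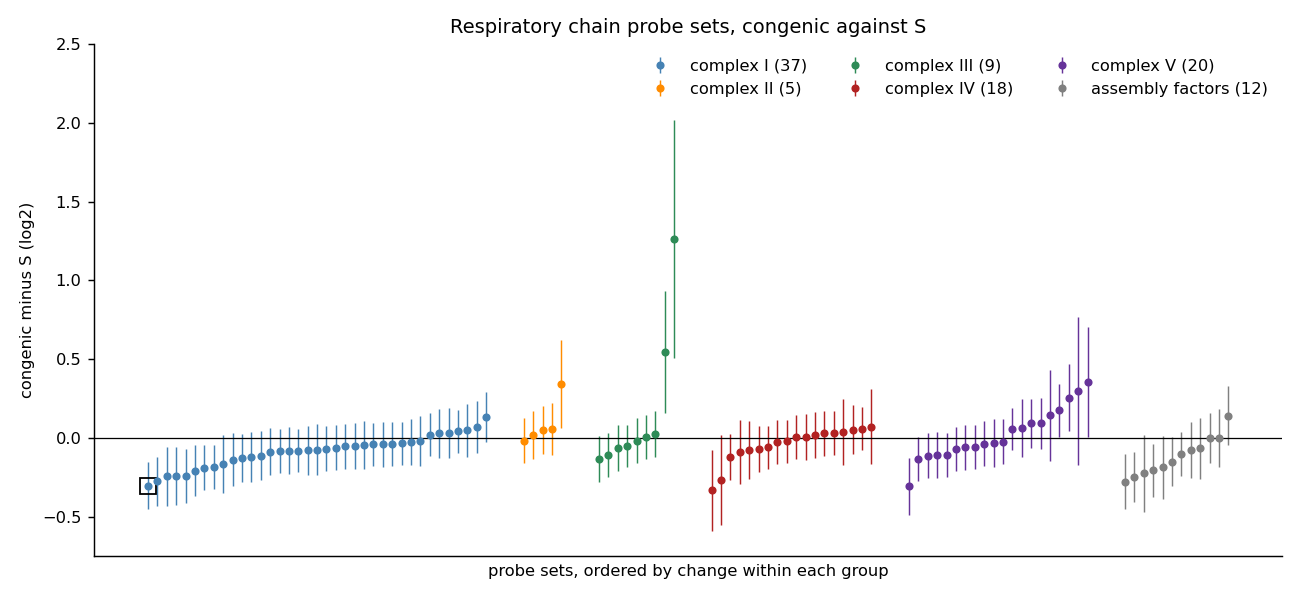
Change of each member probe set, congenic minus S (log2, vertical axis), with its 95% interval as a bar, grouped by complex and ordered within it. The black square marks Ndufs4, and the highest point, at 1.26, is the dimmer Uqcrc2 probe set.

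Below the threshold the members leaned downward in the sign of the change and in the order of the groups. An unadjusted p under 0.05 in limma was reached by 19 members, 6 higher and 13 lower, which is 18.8% against 25.4% of all probe sets. Of all probe sets 11.3% were higher and 14.1% lower at this level, so the members held no excess of falls there. The groups did not overlap in 39 members (38.6%, against 31.2% of all), with congenic rats below in 30 (29.7%, against 18.4%) and above in 9 (8.91%, against 12.7%). In all, 36 members lay above 0, where 43.9% of all probe sets lay, and 65 below, or 64.4% against 56.1%. These shares are descriptions, since the members share rats and arrays. Under quantile normalization 26 members were above 0 in place of 36, and the unadjusted split was 5 higher and 20 lower, so the lean depends in size on the scaling. With that scaling 25 members and 8172 of 31042 probe sets had an unadjusted p under 0.05 in limma, and the probe sets were not counted by direction.

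Most members sat at the bright end of the array: 74 of 101 were in the top 10% of probe set intensities and 2 lay under the lower quartile. Intensity depends on the probes, so it does not rank these genes by transcript number. The changes stayed near 0 over most of this range, as the plot of change against intensity shows.

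**Figure D2:**
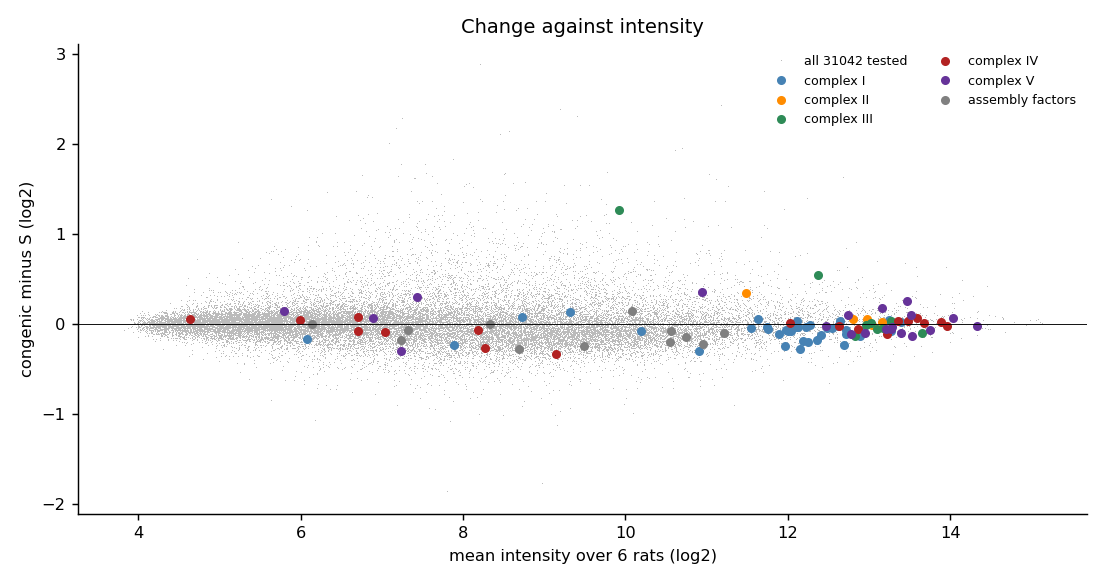
Change (congenic minus S, log2) against mean intensity over the 6 rats (log2) for all 31042 tested probe sets (grey) and the members by complex (coloured). Most members lie above an intensity of 10 and near a change of 0, and the 2 Uqcrc2 probe sets, at 0.54 and 1.26, stand above the rest.

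Promoter sequences were set beside the changes because NRF1, the GABP factor of the ETS family, YY1 and the estrogen-related receptors (ERR) are textbook activators of respiratory genes. Of the 90 genes, 81 had a promoter in the RefSeq table (GRCr8), each with 1. The 250 bases before the start were searched on both strands for 5 motifs. The NRF1 motif was GCGCA and GCGC with 1 base of any kind between them. The motif of the ETS family was CCGGAAG. That of YY1 was AAGATGGC and that of the ERR family was TNAAGGTCA, where N is any base. The TATA box was searched as TATAAA. For each complex the gene of the member with the smallest p is shown, 5′ to 3′ on the gene's strand, with matches to any of these motifs in capitals, none overlapping another:
Ndufs4, chr2:47794915-47795164, minus strand: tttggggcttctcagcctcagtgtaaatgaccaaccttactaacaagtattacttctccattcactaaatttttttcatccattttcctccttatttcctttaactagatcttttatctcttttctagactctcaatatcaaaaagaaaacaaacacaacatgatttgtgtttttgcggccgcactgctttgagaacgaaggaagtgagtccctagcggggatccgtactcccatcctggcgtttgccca
Sdhd, chr8:59850642-59850891, minus strand: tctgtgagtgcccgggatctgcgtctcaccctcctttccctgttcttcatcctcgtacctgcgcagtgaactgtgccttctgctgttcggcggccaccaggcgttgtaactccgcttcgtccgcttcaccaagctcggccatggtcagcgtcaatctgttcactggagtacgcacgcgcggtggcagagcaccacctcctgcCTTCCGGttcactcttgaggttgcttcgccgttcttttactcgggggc
Uqcrc2, chr1:184598990-184599239, plus strand: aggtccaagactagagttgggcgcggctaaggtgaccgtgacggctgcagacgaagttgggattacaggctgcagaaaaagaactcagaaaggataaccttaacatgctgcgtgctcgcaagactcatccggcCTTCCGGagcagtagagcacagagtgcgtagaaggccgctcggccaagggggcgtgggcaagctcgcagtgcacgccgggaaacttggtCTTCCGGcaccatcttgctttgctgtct
Cox5a, chr8:66818034-66818283, plus strand: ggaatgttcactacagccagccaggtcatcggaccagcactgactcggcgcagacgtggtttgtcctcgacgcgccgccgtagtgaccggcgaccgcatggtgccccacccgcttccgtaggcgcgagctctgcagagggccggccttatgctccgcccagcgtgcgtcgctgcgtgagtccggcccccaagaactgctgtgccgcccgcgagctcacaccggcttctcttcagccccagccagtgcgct
Atp5me, chr14:1464610-1464859, plus strand: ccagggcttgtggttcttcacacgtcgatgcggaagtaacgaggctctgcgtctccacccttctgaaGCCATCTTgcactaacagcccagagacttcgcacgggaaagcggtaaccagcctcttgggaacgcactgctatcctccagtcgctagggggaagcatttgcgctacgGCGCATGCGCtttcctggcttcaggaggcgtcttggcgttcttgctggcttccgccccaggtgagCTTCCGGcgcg

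The called gene, Ndufs4, and Cox5a had none of these letters in the window. Sdhd had 1 ETS match, Uqcrc2 had 2 ETS matches, and Atp5me had 3 matches, to NRF1, ETS and YY1. The ETS letters were in 24 of 81 member promoters (29.6%), against 9.01% of 21842 promoters of protein-coding genes. The NRF1 letters were in 13 (16.0%, against 5.06%), and at least 1 of the NRF1, ETS and YY1 motifs in 35 (43.2%, against 14.5%). The YY1 letters were in 2 promoters (2.47%, against 1.64%), those of the ERR family in 1 (1.23%, against 0.879%) and the TATA box in 7 (8.64%, against 12.1%). None of the 14 complex IV promoters held the NRF1 letters. The median share of G and C was 55.6% in the members and 54.0% in the protein-coding promoters. A match is a run of letters, not a shown binding site.

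Complex I, which oxidises NADH, had 37 probe sets of 34 genes, and Ndufs4 was its single call. Ndufs4 stood at 11.02, 11.12 and 11.04 in S rats 1 to 3 and at 10.77, 10.80 and 10.71 in congenic rats 1 to 3. Every congenic rat was below every S rat, by more than the spread within either group. The log2 change was -0.30 ± 0.06 (SE), with a 95% interval of -0.45 to -0.15 (limma, adjusted p = 0.0379). The call held when S rat 1 was left out (adjusted p = 0.0222). It was lost on leaving out S rat 2 or 3, at an adjusted p of 0.0742 and 0.106, and on leaving out congenic rat 1, 2 or 3, at an adjusted p of 0.0851, 0.123 and 0.168. The change itself stayed between -0.32 and -0.27. With the 3′ to 5′ difference in the model the change was -0.20 (adjusted p = 0.82).

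Ndufb7, an accessory subunit of the membrane arm, came next and did not pass. S rats 1 to 3 stood at 12.26, 12.36 and 12.23 and congenic rats 1 to 3 at 12.07, 12.01 and 11.95, again without overlap. The log2 change was -0.28 ± 0.07 (SE, adjusted p = 0.0518), and it was called under quantile normalization (adjusted p = 0.0413) and median centring (adjusted p = 0.0485). It passed in limma without S rat 1 (adjusted p = 0.0428). On leaving out any other rat it did not, at an adjusted p from 0.0861 to 0.205. With the 3′ to 5′ difference in the model the change of Ndufb7 was -0.12 (adjusted p = 0.92). Ndufa7, an accessory subunit of the matrix arm, had 2 probe sets that gave like differences, -0.21 at the brighter and -0.24 at the dimmer (adjusted p = 0.113 and adjusted p = 0.0898). At the dimmer one S rats stood at 8.03, 8.11 and 7.89 and congenic rats at 7.79, 7.78 and 7.75, so the groups did not overlap.

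Across complex I, 30 of 37 probe sets (81.1%) lay below 0, against 56.1% of all probe sets, with changes from -0.30 to 0.13 and a median of -0.07. With the 3′ to 5′ difference in the model 23 lay below 0, the median was -0.0232 and 19 changes turned sign, among them those of Ndufa2 (-0.24 to 0.05) and Ndufb3 (-0.24 to 0.05). In 14 the congenic rats were all below the S rats (37.8%, against 18.4% of all probe sets), and in 2 all above (5.41%, against 12.7%). The 6 core subunits that carry the redox centres and are present in bacteria too (Ndufs1, Ndufs3, Ndufs7, Ndufs8, Ndufv1 and Ndufv2) had changes from -0.09 to 0.03, and none passed. Ndufs1, the large iron-sulfur protein, stood at 12.10 ± 0.09 among S rats and 12.13 ± 0.02 among congenic rats (SD over 3 rats). Ndufv1, which holds the flavin that accepts electrons from NADH, stood at 12.51 ± 0.02 and 12.46 ± 0.05. The 8 probe sets with an unadjusted p under 0.05 (21.6%), all lower where 14.1% of all probe sets were, were those of the accessory subunits Ndufs4, Ndufb7, Ndufa7 (both), Ndufb10, Ndufa2, Ndufb3 and Ndufa12. The highest change was that of Ndufb8, a membrane arm subunit, at 0.13 (adjusted p = 0.282). Ndufa1, the brightest of the complex, stood at 13.39 ± 0.02 among S rats and 13.41 ± 0.02 among congenic rats. For all 37 the 95% interval lay within 0.5 on the log2 scale.

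Complex II, succinate dehydrogenase, links the citric acid cycle to the chain, and none of its 5 probe sets of 4 genes passed. Sdha, the flavoprotein, stood at 12.77 ± 0.09 among S rats and 12.82 ± 0.06 among congenic rats (SD over 3 rats). Sdhb, the iron-sulfur protein, had a change of -0.02, with a 95% interval of -0.16 to 0.12. Sdhc, a membrane anchor, had a change of 0.05, with an interval of -0.10 to 0.20.

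Sdhd, the other membrane anchor, gave different values at its 2 probe sets. The brighter stood at 13.23, 13.06 and 13.16 among S rats and 13.17, 13.16 and 13.18 among congenic rats, within the spread of S. The dimmer stood at 11.59, 11.05 and 11.30 among S rats and 11.66, 11.66 and 11.63 among congenic rats, where S rat 2 was lowest and the groups did not overlap. Its log2 change was 0.34 ± 0.12 (SE, adjusted p = 0.122). It was 0.21 without S rat 2, and without S rat 1 it was 0.48 and passed (adjusted p = 0.00922).

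Complex III, the cytochrome bc1 complex, had 9 probe sets of 8 genes and no call. Uqcrc2, a core protein of its matrix part, stood apart at both probe sets. At the dimmer one S rats stood at 10.11, 8.48 and 9.26 and congenic rats at 10.50, 10.56 and 10.59. At the brighter one S rats stood at 12.52, 11.72 and 12.07 and congenic rats at 12.66, 12.61 and 12.68. In both, S rat 2 was lowest, S rat 1 came near the congenic rats, and the groups did not overlap. The SDs were 0.82 and 0.40 in S, against 0.04 and 0.04 in congenic rats.

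The log2 change of Uqcrc2 was 1.26 ± 0.33 (SE, adjusted p = 0.0584) at the dimmer probe set and 0.54 ± 0.17 (adjusted p = 0.0904) at the brighter. Without S rat 2 these were 0.86 and 0.35, and without S rat 1 they were 1.68 and 0.75 and both passed (adjusted p = 0.00138 and adjusted p = 0.00297). With the 3′ to 5′ difference in the model both turned negative, to -0.31 and -0.18, and neither passed (adjusted p = 0.93 and adjusted p = 0.94). The limma fit gives both groups 1 spread, and here the spread lay in S.

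The other members of complex III were close to equal. Cyc1, the cytochrome c1 heme protein, stood at 13.20 ± 0.02 among S rats and 13.15 ± 0.02 among congenic rats, and Uqcrfs1, the Rieske iron-sulfur protein, at 13.25 ± 0.06 and 13.28 ± 0.03 (SD over 3 rats). Uqcrc1, the partner core protein of Uqcrc2, lay the other way, at 12.89, 12.92 and 12.87 among S rats and 12.83, 12.74 and 12.72 among congenic rats. Its change was -0.13 (adjusted p = 0.24). Uqcr10, a small subunit and the brightest of the complex, had a change of -0.11 (adjusted p = 0.33). The median over complex III was -0.02.

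Complex IV, cytochrome c oxidase, had 18 probe sets of 18 genes and no call, with 9 above 0 and 9 below, the pseudogene among the latter. Ndufa4, named as a complex I subunit and since placed in complex IV, and its paralog Ndufa4l2 are counted here. Cox4i1, the common form of the subunit 4 that regulates the enzyme, stood at 13.96, 14.02 and 13.94 among S rats and 13.95, 13.95 and 13.94 among congenic rats, with an interval for the change of -0.16 to 0.11. Cox6a1 had a change of 0.03 and Cox8a of 0.02. Cox6b1, a subunit on the intermembrane side, had a change of -0.12 (adjusted p = 0.289), with congenic rats below S rats. Ndufa4 had a change of 0.06 (adjusted p = 0.604).

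Cox5a, a nuclear subunit on the matrix side, had the largest negative change of all members. Its single-symbol probe set stood at 9.25, 9.35 and 9.32 among S rats and 9.22, 8.95 and 8.75 among congenic rats. The spread lay in the congenic group and congenic rat 1 came close to S. The change was -0.33 ± 0.11 (SE, adjusted p = 0.109), and -0.22 without congenic rat 3. A much brighter probe set annotated to both Cox5a and a second locus, outside the rule, stood at 13.41 in S and 13.42 in congenic rats.

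Complex IV also has isoforms used in other tissues or states. Cox4i2, known from lung and from low oxygen, stood at 8.40 ± 0.24 among S rats and 8.13 ± 0.13 among congenic rats (SD over 3 rats), and the groups overlapped (change -0.26, adjusted p = 0.228). Cox6a2 and Cox7a1, the heart and muscle isoforms, had changes of -0.08 and 0.07, and Cox6b2 and Cox7b2, testis isoforms, 0.04 and 0.05. They were dim, at means of 6.71, 6.71, 5.99 and 4.64 in that order, with Cox7b2 under the lower quartile. Ndufa4l2, a hypoxia-induced paralog, had a change of -0.07. None of these passed. Cox7a2l, which helps join complexes III and IV into supercomplexes, had a change of 0.01 (adjusted p = 0.963), and the pseudogene Cox6c-ps1 one of -0.09.

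Complex V, the ATP synthase, had 20 probe sets of 16 genes and no call, with a median of -0.03. Its catalytic head was close to equal: Atp5f1b, the catalytic beta subunit, stood at 14.31, 14.40 and 14.29 among S rats and 14.31, 14.30 and 14.32 among congenic rats. The 5 subunits of the F1 part, to which the head belongs, had changes from -0.11 to 0.09. Atp5mc3, which encodes the proton-carrying ring subunit c, had a change of 0.06.

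The larger differences of complex V were those of Atp5pb, Atp5mg, Atp5if1 and the dimmer Atp5me probe set. Apart from Atp5pb, the stator stalk subunits had changes from -0.11 to 0.06. Atp5pb, a stator stalk subunit, stood at 13.54, 13.20 and 13.28 among S rats and 13.58, 13.63 and 13.59 among congenic rats (change 0.26 ± 0.09 SE, adjusted p = 0.124). It was 0.19 without S rat 2 (adjusted p = 0.287) and -0.05 with the 3′ to 5′ difference in the model, and without S rat 1 it was 0.36 and passed (adjusted p = 0.0135). Atp5mg, a membrane subunit, had a change of 0.18 (adjusted p = 0.175). Atp5me, a membrane subunit that takes part in pairing of the synthase, differed between probe sets. The dimmer stood at 7.32, 7.48 and 7.39 among S rats and 7.16, 6.96 and 7.14 among congenic rats (change -0.31, adjusted p = 0.0568), without overlap, and the brighter had a change of -0.03 (adjusted p = 0.842).

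Atp5if1, which stops the synthase from running backwards, stood at 11.15, 10.47 and 10.67 among S rats and 11.15, 11.14 and 11.06 among congenic rats at its brightest probe set. S rat 1 lay with the congenic rats and S rat 2 was lowest. The change was 0.36 ± 0.15 (SE, adjusted p = 0.187). It was 0.21 without S rat 2, and without S rat 1 it was 0.55 and passed (adjusted p = 0.00437). The other 2 probe sets of the gene were dimmer, at means of 7.44 and 5.80, the second under the lower quartile. Their changes were 0.30 and 0.15 (limma adjusted p = 0.421 and adjusted p = 0.531), with overlapping groups. Without congenic rat 1 the first of these was 0.07.

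**Figure D3:**
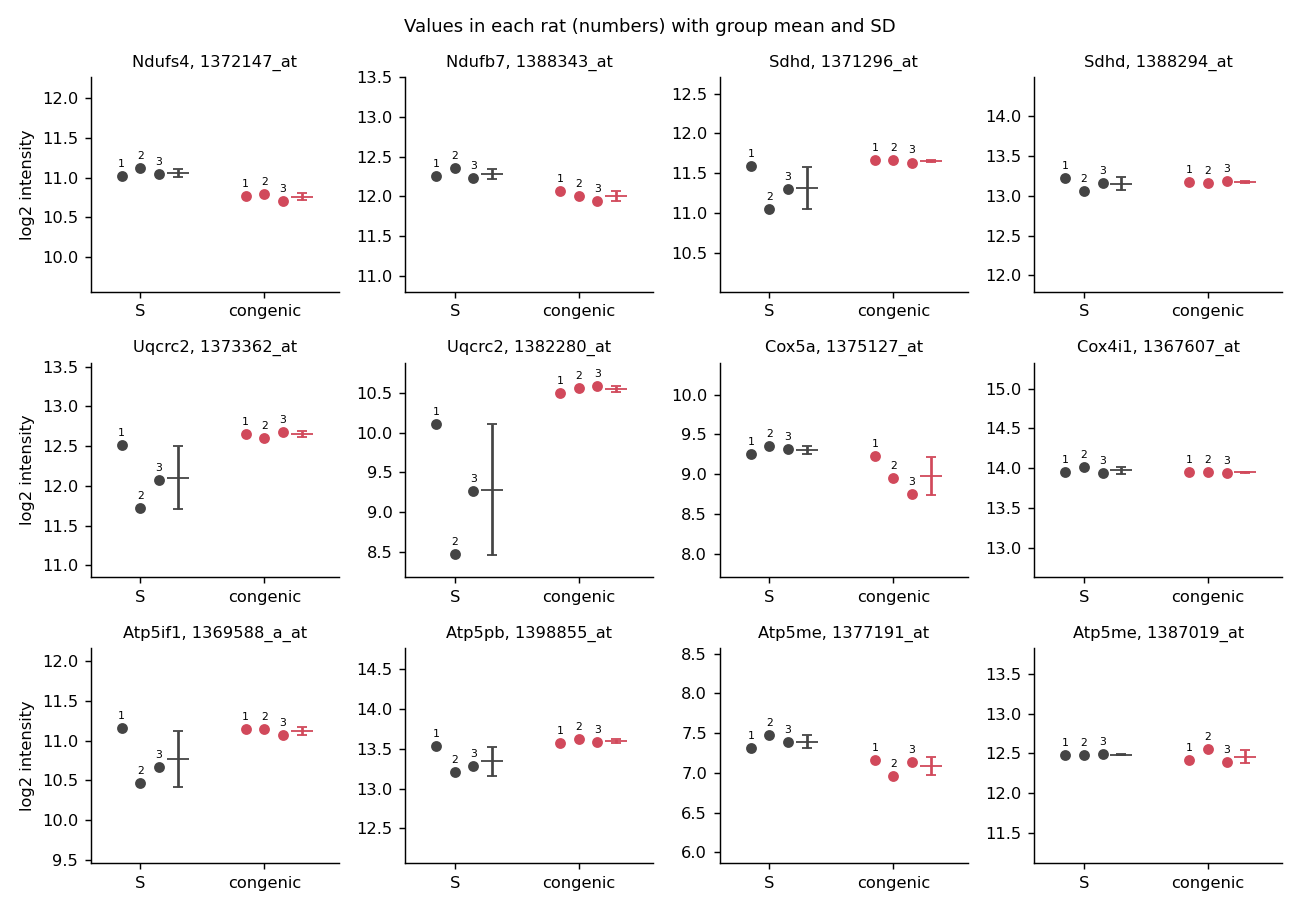
Log2 intensity in each rat (points, numbered by rat, S grey and congenic red) with the group mean and SD beside them, for 12 probe sets on axes of equal height. In Uqcrc2, Atp5if1, Atp5pb and the dimmer Sdhd probe set S rat 2 is lowest, while in Ndufs4 and Ndufb7 it is highest.

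Assembly factors help build complexes I and II and are not part of them. None of the 12 probe sets passed, 9 lay below 0, and the median change was -0.12. Ndufaf5, which modifies a core subunit of complex I, stood at 8.78, 8.96 and 8.74 among S rats and 8.60, 8.52 and 8.53 among congenic rats (change -0.28, adjusted p = 0.0689). Ndufaf8, the partner of Ndufaf5, stood at 9.63, 9.68 and 9.54 among S rats and 9.43, 9.37 and 9.31 among congenic rats (change -0.25, adjusted p = 0.0691). Both had congenic rats below all S rats, as did Ndufaf3, with a change of -0.21 (adjusted p = 0.127). With the 3′ to 5′ difference in the model these changes were -0.02, -0.13 and -0.03. Of the complex II factors, Sdhaf1, the brightest, had a change of -0.10 (adjusted p = 0.36) and Sdhaf4 one of 0.14 (adjusted p = 0.32).

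By rat, the medians of the complexes moved within narrow bounds. Taken as the difference of each probe set from its mean over the 6 rats, the median of complex I was 0.05, 0.07 and -0.0033 in S rats 1 to 3 and -0.0063, -0.03 and -0.06 in congenic rats 1 to 3. The groups did not overlap, but S rat 3 and congenic rat 1 were nearly equal. Medians over all tested probe sets did not overlap either, at -0.0020, 0.0181 and 0.0167 among S rats and -0.0135, -0.0025 and -0.0120 among congenic rats. Over all members the groups overlapped, with S rat 3 at -0.0104 and congenic rat 1 at -0.0038. Complex II ran otherwise, at 0.06, -0.10 and -0.04 among S rats and 0.02, 0.0079 and 0.02 among congenic rats, so the groups overlapped. Assembly factors stood at 0.09, 0.11 and -0.01 among S rats and -0.01, -0.10 and -0.09 among congenic rats, where S rat 3 lay close to congenic rat 1. In complexes III, IV and V the groups overlapped.

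**Figure D4:**
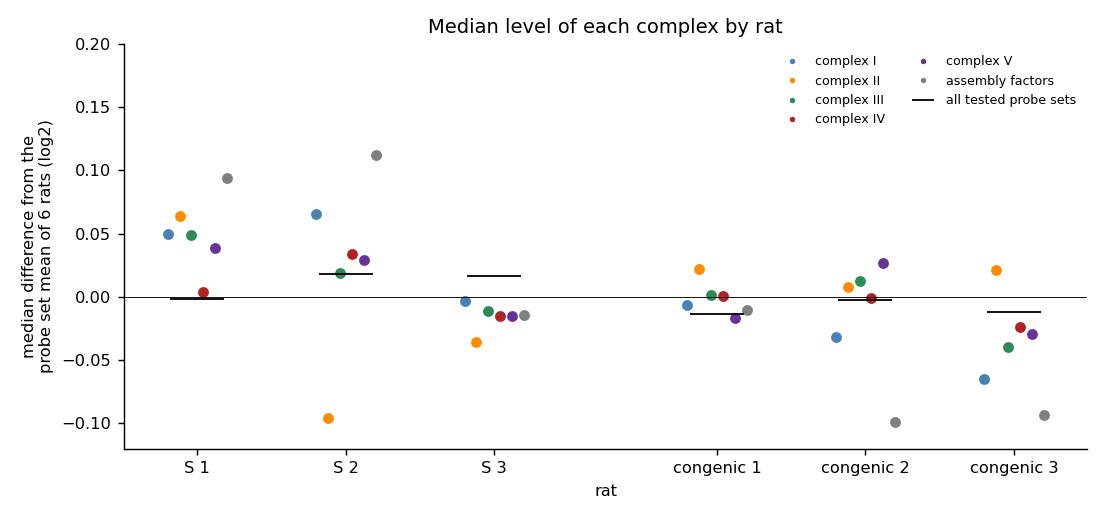
Median over the probe sets of each complex (coloured points) of the difference from the probe set's mean of 6 rats (log2, vertical axis), for each rat (horizontal axis). Black bars give the same over all tested probe sets. Complex I and the assembly factors are highest in S rats 1 and 2, and complex II is lowest in S rat 2.

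The members' spread was wider in S. The SD was larger in S than in congenic rats for 77 of 101 members (76.2%, against 64.2% of all probe sets), with medians of 0.06 and 0.04. S rat 2, the rat with the widest 3′ to 5′ difference, often held the outer value. Among the 9 members with congenic rats above all S rats, S rat 2 was the lowest S rat in 7 (77.8%, against 65.4% over all such probe sets). Among the 30 with congenic rats below, S rat 2 was the highest in 24 (80.0%, against 72.9%), and in complex I in 14 of 14. This count was made after the values were seen. In the dimmer Uqcrc2 probe set, picked after the values were seen, the S rats lay in the order of their 3′ to 5′ difference. They ran from 10.11 at 1.56 through 9.26 at 1.70 to 8.48 at 2.10. The congenic rats did not keep that order, at 10.50 at 1.26, 10.59 at 1.08 and 10.56 at 1.01. With the 3′ to 5′ difference as a term, 0 of 101 members and 0 of 31042 probe sets passed in limma. At an unadjusted p under 0.05 there were 2 members and 2292 probe sets. The term separates the groups, so strain and RNA quality cannot be told apart here.

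**Figure D5:**
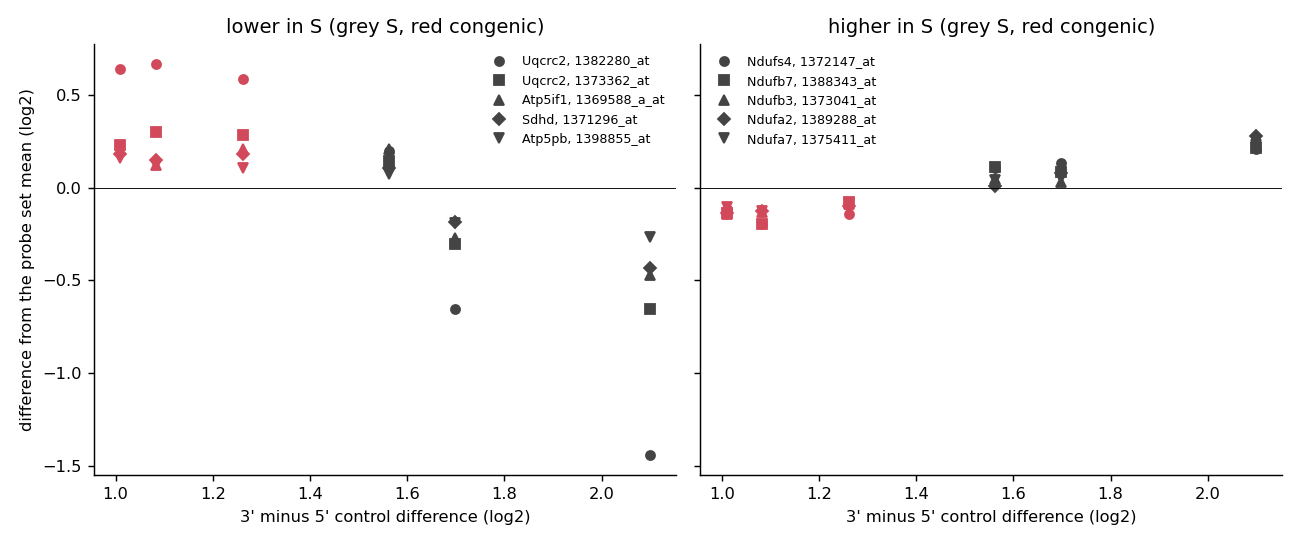
Difference of each rat from the probe set's mean (log2, vertical axis) against its 3′ minus 5′ control difference (log2, horizontal axis), S grey and congenic red. The left panel holds 5 probe sets lower in S and the right 5 higher in S, all picked by hand. S rat 2, at 2.10, holds the outermost S value for all 10 of them, which does not hold for every member. In Atp5mg, not drawn, congenic rats were above all S rats and S rat 3 was lowest, at 12.98 against 13.05 in S rat 2.

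The other genes of the system came from lists of known function, each gene by its brightest probe set. Both probe sets for mitochondrially encoded subunits, COX1 and COX2 of complex IV, had changes of 0.04 and 0.0089. They stood at 15.05 and 15.10 in S, near the highest values on the arrays (15.11 to 15.14), where differences can be compressed, and COX2 had the same value in all 3 S rats. Of 36 assembly factors outside the rule 2 fell, against 2.53% of all probe sets, and 34 did not pass. At an unadjusted p under 0.05 in limma 3 were higher and 12 lower, where 11.3% and 14.1% of all probe sets were. The 2 that fell were Cox10, which makes heme for complex IV, by 0.34 (adjusted p = 0.0403), and Uqcc2, a complex III factor, by 0.31 (adjusted p = 0.0441). With the 3′ to 5′ difference in the model these were -0.15 and -0.10.

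Among 20 genes that drive transcription of respiratory genes or copy mitochondrial DNA, 1 fell, against 2.53% of all probe sets, and 19 did not pass. At an unadjusted p under 0.05 in limma 0 were higher and 6 lower, where 11.3% and 14.1% of all probe sets were. The list median was -0.14 against -0.02 over all probe sets. Esrrg, an estrogen-related receptor that binds respiratory gene promoters, fell from 11.60 ± 0.06 among S rats to 11.26 ± 0.02 among congenic rats (SD over 3 rats, limma adjusted p = 0.0300). A second, dimmer Esrrg probe set had a change of 0.16 (adjusted p = 0.436). Ppargc1a, the coactivator PGC-1alpha, had a change of -0.14 at its brightest probe set and of 0.32 and 0.41 at the other two, none of which passed. Nrf1 had a change of -0.13, Gabpa of -0.03 and Tfam, which packs and transcribes mitochondrial DNA, of 0.07.

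No gene passed in the other lists of mitochondrial function: 18 of the citric acid cycle and pyruvate dehydrogenase (median 0.01), 12 carriers and porins (0.07), 17 of protein import and cristae (-0.02) and 19 of other electron carriers and ubiquinone synthesis (-0.07). At an unadjusted p under 0.05 limma gave 1 higher and 3 lower, 0 and 0, 2 higher and 1 lower, and 2 higher and 5 lower in the same order. Of all probe sets 11.3% were higher and 14.1% lower at that level.

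Fat around the kidney also expresses respiratory genes, brown fat in particular. Of 8 brown and white fat markers 2 fell, where 2.53% of all probe sets did. They were Cidec, by 0.61 (adjusted p = 0.0202), and Cox8b, a muscle and brown fat isoform of complex IV outside the rule, by 0.84 (adjusted p = 0.0484). Ucp1, the uncoupling protein that defines brown fat, had a change of -1.14 (adjusted p = 0.0507). At an unadjusted p under 0.05 in limma 0 of the 8 were higher and 7 lower, where 11.3% and 14.1% of all probe sets were. Changes in this list ran from -1.14 to -0.21, with a median of -0.58. The summed linear level of the 8 markers ran from 5556 to 7914 in S and from 4405 to 5318 in congenic rats, without overlap. Cox7a1, the member isoform shared with brown fat, stood at 6.67 ± 0.13 among S rats and 6.75 ± 0.18 among congenic rats.

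Some markers of other kidney cells moved too. Over all probe sets 3.47% were called higher and 2.53% lower. Of 9 proximal tubule markers 3 rose, the transporters Slc5a12 (by 2.28, adjusted p = 0.0224), Slc5a2 (by 1.67, adjusted p = 0.0333) and Slc22a8 (by 1.65, adjusted p = 0.0265). S rat 2 was lowest in these 3. With the 3′ to 5′ difference in the model their changes were 1.33, 0.60 and 0.59. The summed level of the list overlapped, at 90023 to 96150 in S and 95997 to 100835 in congenic rats. Of 4 thick ascending limb markers Cldn16 fell by 0.35 (adjusted p = 0.0340), and the sum was 38447 to 39931 in S and 36792 to 37588 in congenic rats, without overlap. That sum is of linear levels, so Umod, the brightest of the list, weighs most in it. Kcnj1 of the same list lay the other way, with a change of 0.58 (limma adjusted p = 0.0671) and congenic rats above all S rats. Of 5 collecting duct markers Slc4a1 fell by 0.28 (adjusted p = 0.0463), with overlapping sums of 13644 to 15460 and 13481 to 15057. Of 4 leukocyte markers Lyz2 rose by 0.35 (adjusted p = 0.0340) and C1qb by 0.46 (adjusted p = 0.0235), with sums of 8791 to 9452 in S and 10747 to 12154 in congenic rats, without overlap. None of 3 distal tubule, 3 podocyte and 5 skeletal muscle markers passed, with 0, 0 and 1 at an unadjusted p under 0.05 in limma. The part of these and of the fat markers in the values of the respiratory chain members was not tested.

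The congenic segment lies on chromosome 10, and 4 members map there in GRCr8. Ndufb10, a complex I subunit, stood at 12.24, 12.32 and 12.28 among S rats and 12.11, 12.12 and 12.06 among congenic rats (change -0.19, adjusted p = 0.104). Ndufaf8, given above, lay the same way. Uqcrq, of complex III, had a change of -0.06 and Atp5pd, of complex V, one of -0.03. None passed, and the ends of the segment were not placed here. Ndufs4 maps to chromosome 2 and Uqcrc2 to chromosome 1.

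In addition, 9 probe sets carry a member symbol together with that of another locus, so they stayed outside the rule. Both cytochrome c probe sets, annotated to Cycs with related loci, stood at 14.52 and 13.74 among S rats and 14.45 and 13.85 among congenic rats. The others carry Atp5mc1, Atp5mc2, Cox5a, Cox7a2, Ndufa10, Ndufs5 and Uqcrb. Their differences lay between -0.05 and 0.02 except that of Ndufa10 of complex I, which was -0.22, from 11.72 ± 0.08 to 11.50 ± 0.04 (SD over 3 rats).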

How the data were processed

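Total RNA from 6 rat kidneys was labelled with biotin and hybridised to Affymetrix arrays, per the labels' protocols. The authors deposited 1 log2 intensity per probe set and rat, and the close quartiles of the 6 columns show that they had been normalized. The method that made them is not given in the sources used here. Of 31099 probe sets, 57 Affymetrix controls were left out, and the other 31042 were tested together.

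Groups and rat numbers came from the sample titles. Genes were named through the platform annotation, and chromosomes and promoters through RefSeq (GRCr8). The strains were tested against each other in R 4.3.3 by limma 3.58.1 (eBayes after lmFit, two-sided, Benjamini-Hochberg over all tested probe sets, 4 residual degrees of freedom, 8.49 with the prior). The method was tested on simulated data. Figures were drawn with matplotlib 3.10.9.

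The members, lists and rule for named genes were chosen with earlier results of these data known. The rule names called members, and in each complex the 3 smallest p, the highest mean, the largest rise and the largest fall, then isoform pairs, genes whose probe sets differ by over 0.5, and called genes of the context lists. Beyond it, the other genes named with values were chosen after these were seen. Call and sign counts, medians by complex and the values of members named by rule were recomputed under other settings. Values were rescaled by quantile normalization or median centring, or dim probe sets, with a mean under percentile 40, were dropped. The fit was varied with array weights, robust eBayes, a trend on intensity, the RNA quality term or a block for rat number. In turn each rat was left out, 1 probe set per gene was kept, symbols were updated or the threshold was raised to 0.1. For genes of the context lists only the RNA quality term was tried. List sums, counts of groups without overlap and promoter shares were not recomputed. Promoters were searched by exact letters.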

Additional observations from a re-analysis of the deposited data

How the results depend on the processing

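Ndufs4 was the single call, and its direction held under every alternative run, but its call did not. The number of called members was 0 higher and 1 lower. Higher calls were 1 with an intensity trend, 6 with array weights and 2 at an adjusted p under 0.1, and ran from 0 to 5 when rats were left out. Lower calls were 2 under quantile normalization, 2 under median centring, 3 without dim probe sets, 4 with the trend, 11 with array weights, 6 at an adjusted p under 0.1, 0 with the rat number as a block and 0 with the RNA quality term, and ran from 0 to 4 when rats were left out. Over all probe sets, 1862 were called. This became 4752 when S rat 1 was left out, 0 when S rat 3 or congenic rat 2 was, 658 with the replicate block and 6077 with array weights.

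Medians moved to -0.0232 (complex I), -0.10 (II), -0.0611 (III) and -0.0449 (assembly factors) with the RNA quality term, and to -0.0530 (III), -0.0393 (IV) and -0.0658 (V) under quantile normalization. With rats left out they ran from -0.06 to -0.03 over all members, -0.09 to -0.05 for I, 0.01 to 0.09 for II, -0.04 to 0.0087 for III, -0.02 to -0.0028 for IV, -0.03 to 0.0032 for V and -0.15 to -0.11 for assembly factors. The 3′ to 5′ difference between groups ran from -0.78 to -0.51.

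Signs turned in 46 of 101 members with the RNA quality term (23 each way), 10 under quantile normalization and 5 under median centring (all to below 0), 5 with array weights, and 20 on leaving out at least 1 rat. None of them was called before or after turning. Among the members named by rule, the turned values with the RNA quality term were Sdhaf4 (-0.0457), Ndufa1 (-0.0055), Ndufb8 (-0.0506), Sdha (-0.0384), Sdhc (-0.0928), Sdhd (-0.13 and -0.16), Uqcrc2 (-0.18 and -0.31), Cox4i1 (0.0481), Cox4i2 (0.33), Cox7a1 (-0.0607), Cox8a (-0.10), Atp5f1b (0.0806), Atp5if1 (-0.23) and Atp5pb (-0.0539). Under quantile normalization they were Sdhd (-0.0187), Cox6a1 (-0.0014) and Cox8a (-0.0023), and with array weights Atp5f1b (0.0061). With a rat left out, the values of those that crossed 0 ran from -0.0323 to 0.0117 for Sdhb, -0.0224 to 0.0592 for Sdhd, -0.0059 to 0.0564 for Cox8a, -0.0424 to 0.00997 for Atp5f1b, -0.0170 to 0.11 for Cox6b2 and -0.0135 to 0.16 for Cox7a1. The cause was not tested.

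Rats with the same number did not deviate together (r = -0.01, -0.18 and -0.14). These values come from deviations within groups of 3 rats, so they cannot show whether rats of the same number shared a litter or batch. No S rat correlated best with its own number. With the replicate block the Ndufs4 adjusted p was 0.0824 in limma. With 3 rats a group and 1 strain, nothing separates strain from litter or from RNA quality.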
